A study of Mus musculus with 12 samples.

Results

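The 10 genes described here belong to the circadian clock: Arntl, Npas2, Per1, Per2, Cry1, Nr1d1, Nr1d2, Dbp, Ciart and Nfil3. They were chosen by name for their place in the clock, with earlier results of these data known. They were found through their Ensembl identifiers among the 28030 identifiers of the table. All 10 were listed. Of these, 9 were among the 12086 genes tested, each with at least 48 estimated counts in every library, and Npas2 was below the filter on low counts. All are protein-coding in GENCODE M21 (GRCm38), where Per1 (ENSMUSG00000020893) spans chromosome 11 from 69095217 to 69109960, Per2 (ENSMUSG00000055866) chromosome 1 from 91415982 to 91459324, Nr1d1 (ENSMUSG00000020889) chromosome 11 from 98767932 to 98775333 and Nr1d2 (ENSMUSG00000021775) chromosome 14 from 18204054 to 18239127.

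RNA was sequenced from hepatocytes of 12-week-old wild-type female mice on normal chow, in 12 libraries that form 4 groups of 3. The groups were pericentral hepatocytes (PC, around the central vein of the lobule) and periportal hepatocytes (PP, around the portal tract), each from mice fasted for 24 h and from fed mice. All mice had been trained for 3 days to eat in the daytime, with 8 h of food and 16 h without. Fed mice were killed at 13:00 after 4 h with chow and water holding 20% sucrose, and fasted mice at 13:00 on the day after food and sucrose water had been removed. The labels name digitonin, a detergent with which cells of 1 zone can be lysed before the others are collected. Libraries are labelled as biological replicates; neither the light schedule nor a mouse shared by PC and PP libraries of equal number is stated. All groups were sampled at 1 time of day, so a shift of the daily cycle and a change of its height cannot be told apart, and neither can the lack of food and the lack of sucrose. Since the fed mice had been given food 4 h before, a change with fasting and an opposite change after the meal cannot be told apart either. In what follows, rose and fell compare fasted with fed libraries.

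The clock of mammals is a feedback loop of transcription. The proteins BMAL1 (the product of Arntl) and CLOCK or its relative NPAS2 bind E-box sequences and switch on the Period and Cryptochrome genes, whose products then block BMAL1 and CLOCK. A second loop runs through the nuclear receptors REV-ERB alpha and beta (Nr1d1 and Nr1d2), which are switched on by the same activators and repress Arntl. Output factors such as DBP carry the rhythm to metabolic genes, and in the liver meal times help to set it.

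Total estimated counts ran from 16245846 to 27449412 per library. The sum of 8 hepatocyte markers was 99090 to 188000 CPM (estimated counts per 1000000, with library sizes scaled by trimmed means of M values), against at most 10.2 CPM for 9 Kupffer cell markers, 22.2 for 6 endothelial, 20.2 for 6 stellate, 47.3 for 5 cholangiocyte and 6.2 for 6 lymphocyte and neutrophil markers. The 7 pericentral markers found in the table summed to 12660 to 22850 CPM in fasted PC and 14010 to 15040 in fed PC libraries, against 202.8 to 938.7 in fasted PP and 654.6 to 1451 in fed PP libraries. The 8 periportal markers separated the zones less sharply. They summed to 15510 to 21080 CPM in fasted PP libraries, against 7657 to 9363 in fasted PC libraries. In fed mice the sums were 8406 to 10380 CPM in PP libraries, against 2935 to 3592 in PC libraries. Fasted PC replicate 1 stood apart in some zone markers. Its Glul, glutamine synthetase of the pericentral zone, was at 172.0 CPM (fasted PC replicates 2 and 3 had 3639 and 2353 CPM). Its pericentral Oat was at 452.4 CPM (2309 and 1971), its periportal Sds at 112.3 (16.2 and 32.6) and Cyp2f2 at 242.4 (67.8 and 75.4). Its pericentral Cyp2e1, at 11794 CPM (15402 and 14721), lay above the fed PC libraries, which had 8911 to 10862 CPM. Fasting effects in PC and zone values in fasted mice are therefore also given without this library. Among 9 immediate early and dissociation genes, 8 were tested and edgeR called 0 for fasting in PC or in PP, with 0 in PC and 2 in PP at an unadjusted p under 0.05. For PC over PP, edgeR called 0 of the 8 in fasted or in fed mice. At an unadjusted p under 0.05 there were 4 in fasted mice (19.3% of all genes) and 1 in fed mice (16.7% of all genes). The median log2 fold change of the 8, PC over PP, was -0.95 in fasted and -0.36 in fed mice.

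The start regions below are shown because they hold the letters of motifs through which factors of the clock are known to act. RefSeq (GRCm38.p6) gave 300-base windows, 250 bases before to 50 after an annotated start, for 9 of the 10 genes. Each is written 5′ to 3′ on the gene's strand, and capitals mark the motif matches, searched on both strands. The E-box is CACGTG, the core of the element bound by ROR and REV-ERB receptors is AGGTCA, and the half-site of the cAMP response element is TGACG. With positions counted from the RefSeq start of each window, whose first transcribed base is 1, Ciart holds E-boxes that begin at -116, -58 and -44 (chr3:95882179-95882478, minus strand), Cry1 holds 1 at -60 and a TGACG at -8 (chr10:85185005-85185304, minus strand), and the upstream Per1 window holds 1 E-box at -166, an AGGTCA on the other strand at -137 and a TGACG at -246 (chr11:69098699-69098998, plus strand). The downstream Per1 window holds a TGACG at -132 (chr11:69099902-69100201, plus strand), and the second Arntl window an AGGTCA at 32 (chr7:113207261-113207560, plus strand).
Ciart: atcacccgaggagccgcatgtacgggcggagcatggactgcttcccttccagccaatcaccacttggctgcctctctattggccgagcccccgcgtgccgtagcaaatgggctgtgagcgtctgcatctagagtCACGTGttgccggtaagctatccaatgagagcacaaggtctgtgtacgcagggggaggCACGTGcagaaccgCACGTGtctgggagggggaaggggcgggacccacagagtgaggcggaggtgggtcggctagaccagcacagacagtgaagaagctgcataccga
Cry1: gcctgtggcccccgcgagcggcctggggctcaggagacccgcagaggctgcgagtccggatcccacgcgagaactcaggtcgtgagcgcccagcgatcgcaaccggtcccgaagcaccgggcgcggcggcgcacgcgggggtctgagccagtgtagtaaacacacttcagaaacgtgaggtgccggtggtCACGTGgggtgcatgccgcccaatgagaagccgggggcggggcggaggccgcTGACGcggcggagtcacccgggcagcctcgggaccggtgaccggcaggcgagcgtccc
Per1 upstream: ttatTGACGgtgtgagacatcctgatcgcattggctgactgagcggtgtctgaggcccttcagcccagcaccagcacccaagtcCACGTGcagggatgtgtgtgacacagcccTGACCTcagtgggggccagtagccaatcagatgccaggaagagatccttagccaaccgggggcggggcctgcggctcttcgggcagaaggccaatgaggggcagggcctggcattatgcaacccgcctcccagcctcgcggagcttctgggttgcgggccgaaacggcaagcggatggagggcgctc
Per1 downstream: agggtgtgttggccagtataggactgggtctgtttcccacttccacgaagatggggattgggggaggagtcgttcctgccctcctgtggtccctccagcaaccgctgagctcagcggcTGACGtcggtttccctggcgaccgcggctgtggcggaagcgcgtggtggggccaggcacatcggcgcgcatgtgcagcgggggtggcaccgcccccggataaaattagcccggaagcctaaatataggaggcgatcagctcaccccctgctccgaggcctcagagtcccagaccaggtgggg
Arntl second window: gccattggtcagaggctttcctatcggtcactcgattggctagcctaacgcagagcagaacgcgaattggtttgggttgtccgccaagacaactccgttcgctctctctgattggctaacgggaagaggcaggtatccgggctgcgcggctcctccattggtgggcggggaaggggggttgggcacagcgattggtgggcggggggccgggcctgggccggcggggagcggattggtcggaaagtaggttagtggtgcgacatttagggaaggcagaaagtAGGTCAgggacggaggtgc

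Ciart, Cry1 and Per1 were the 3 of 9 genes with an E-box in a window, a motif held by 8.09% of 27025 mouse genes in that table. An AGGTCA lay in windows of Arntl, Per1, Nr1d2 and Nfil3 (18.1% of all genes), and a TGACG in those of Per1, Cry1 and Nfil3 (23% of all genes). Neither the D-box (TTACGTAA or TTATGTAA, 1.23% of genes) nor the full cAMP response element (TGACGTCA, 2.03%) was found in a window of the 9. These are matches of letters, and the counts per gene do not tell the starts of a gene apart.

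With fasting, Per1 rose and Per2 fell in both zones, and the REV-ERB gene Nr1d2 and the repressor gene Nfil3 rose in both. In PC, 4 members were higher (Per1, Nr1d1, Nr1d2 and Nfil3), 1 was lower (Per2) and 4 of the 9 did not pass the test. In PP, 4 members were higher (Per1, Nr1d2, Ciart and Nfil3), 1 was lower (Per2) and again 4 did not pass. A call is a Benjamini-Hochberg adjusted p under 0.05 over all genes in edgeR's quasi-likelihood test. By it, 21.4% of all genes were called for fasting in PC (11.1% higher, 10.2% lower) and 17.9% in PP (8.39% higher, 9.50% lower). The median log2 fold change of the 9 members was 1.04 in PC, against 0.0042 over all genes, and 0.77 in PP, against 0.0049. Per1, Nr1d2, Nfil3 and Per2 were called in the same direction in both zones, as were 12.8% of all genes. The calls of Per1 and Per2 held in all 12 fits that left out 1 library, in both zones. Those of Nr1d2 held in 12 such fits in PC and 3 in PP, and those of Nfil3 in 2 in PC and 8 in PP. Counts out of 12 fits include those that left out a library outside the 2 groups compared. Such a library enters a comparison only through the shared fit. Without fasted PC replicate 1, 4 members were called in each zone (3 higher, 1 lower). In RNA from bulk cells, fewer expressing cells and less RNA per cell cannot be told apart.

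**Figure D1:**
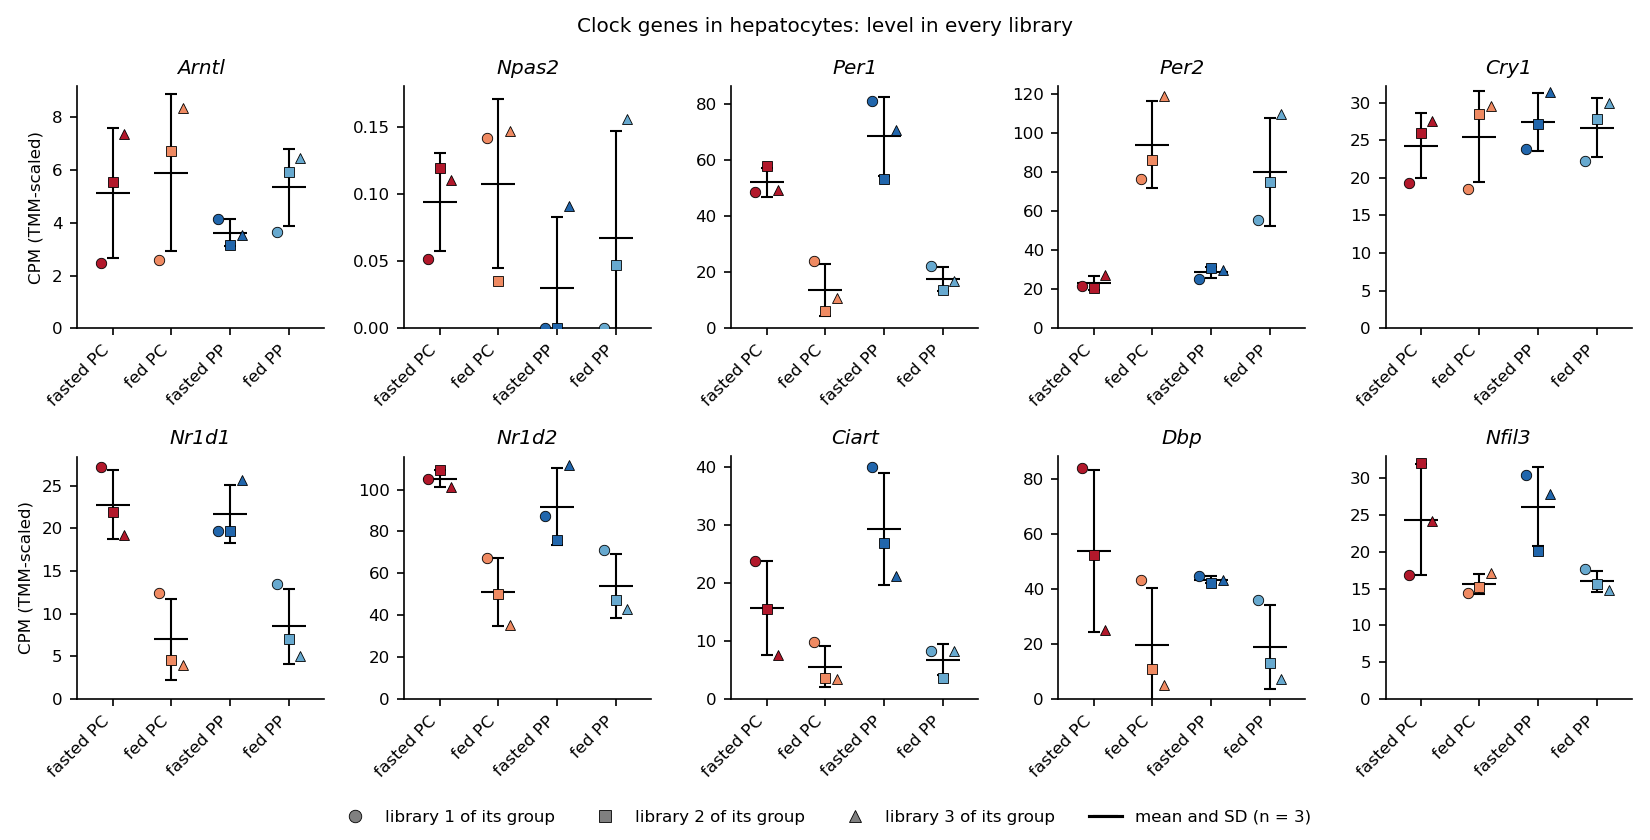
Level in CPM (vertical axis, starting at 0) of each of the 10 clock genes in the 12 libraries, by group; point shapes give the library number, and lines the mean and SD of 3 libraries. Per1, Per2, Nr1d1 and Nr1d2 separate fasted from fed libraries in both zones, Cry1 and Arntl overlap, and Npas2 stays at or below 0.16 CPM.

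Arntl, the gene of the activator BMAL1, was at 2.47, 5.54 and 7.37 CPM in fasted PC libraries, against 2.59, 6.71 and 8.38 CPM in fed PC libraries. In PP it was at 4.16, 3.16 and 3.56 CPM in fasted libraries, against 3.67, 5.91 and 6.45 CPM in fed libraries. The groups overlapped in both zones, and the lowest PC libraries were replicate 1 of the fasted and of the fed group. Its log2 fold change, fasted over fed, was -0.20 ± 0.44 (SE; adjusted p = 0.78 in edgeR) in PC and -0.56 ± 0.44 (adjusted p = 0.43 in edgeR) in PP. The 95% intervals ran from -1.15 to 0.76 in PC and from -1.53 to 0.41 in PP, which leaves room for changes of more than 2-fold in either zone. Leaving out fasted PC replicate 1 turned the PC value to 0.12, and leaving out fed PC replicate 3 turned it to 0.14.

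Npas2, whose product can stand in for CLOCK as partner of BMAL1, was close to the limit of detection. It had 1, 2 and 2 estimated counts in fasted PC libraries, against 4, 1 and 3 in fed PC libraries, and 0, 0 and 2 in fasted PP libraries, against 0, 1 and 3 in fed PP libraries. The level that 3 counts stand for was 0.104 to 0.181 CPM per library, so no difference of Npas2 was detectable at this depth. These limits cover counting error only.

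Per1, a repressor of the loop that also responds to hormones and cAMP, rose with fasting in both zones. It was at 48.7, 58.0 and 49.3 CPM in fasted PC libraries, against 23.9, 6.30 and 10.9 CPM in fed PC libraries. In PP the levels were 81.1, 53.3 and 70.7 CPM in fasted libraries, against 22.0, 13.7 and 16.7 CPM in fed libraries. Every fasted library lay above every fed one of its zone. Its log2 fold change was 1.92 ± 0.40 (SE; adjusted p = 0.0071 in edgeR) in PC and 1.97 ± 0.40 (adjusted p = 0.0076 in edgeR) in PP, which are 3.79-fold and 3.91-fold. Without fed PC replicate 1, the highest fed library, the PC value was 2.61, and without fasted PC replicate 1 it was 1.95 (adjusted p = 0.016 in edgeR).

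Per2, a repressor of the same family, fell with fasting in both zones. It was at 21.4, 20.6 and 27.2 CPM in fasted PC libraries, against 76.6, 86.0 and 119.0 CPM in fed PC libraries. PP hepatocytes had 25.3, 30.7 and 30.0 CPM in fasted libraries, against 55.2, 74.8 and 109.6 CPM in fed libraries. The groups did not overlap, and fed libraries spread more widely than fasted ones. Per2 had a log2 fold change of -2.02 ± 0.24 (SE; adjusted p = 0.00029 in edgeR) in PC, a level 4.07-fold lower in fasted cells, and of -1.48 ± 0.24 (adjusted p = 0.0018 in edgeR) in PP, 2.78-fold lower. Without fasted PC replicate 1 the PC value was -1.99 (adjusted p = 0.0017 in edgeR).

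The ratio of Per1 to Per2 estimated counts shows the opposite moves in single libraries; since the genes differ in length, only its change between libraries can be read. It was 2.27, 2.82 and 1.81 in fasted PC libraries, against 0.312, 0.0732 and 0.0914 in fed PC libraries. In PP it was 3.2, 1.74 and 2.36 in fasted libraries, against 0.399, 0.183 and 0.153 in fed libraries. The lowest fasted ratio, 1.74, stood above the highest fed ratio, 0.399.

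Cry1, a cryptochrome that blocks BMAL1 and CLOCK together with the Period proteins, did not pass the test in either zone. Its levels were 19.3, 26.0 and 27.5 CPM in fasted PC libraries, against 18.5, 28.5 and 29.5 CPM in fed PC libraries. PP libraries had 23.8, 27.1 and 31.4 CPM when fasted, against 22.3, 27.9 and 29.9 CPM when fed. The 4 groups overlapped, between 18.5 and 31.4 CPM. The log2 fold change was -0.07 (95% interval -0.49 to 0.35; adjusted p = 0.83 in edgeR) in PC and 0.04 (-0.38 to 0.46; adjusted p = 0.91 in edgeR) in PP, so intervals of both zones exclude a 2-fold change. Leaving out fasted PC replicate 1 gave 0.05 in PC.

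**Figure D2:**
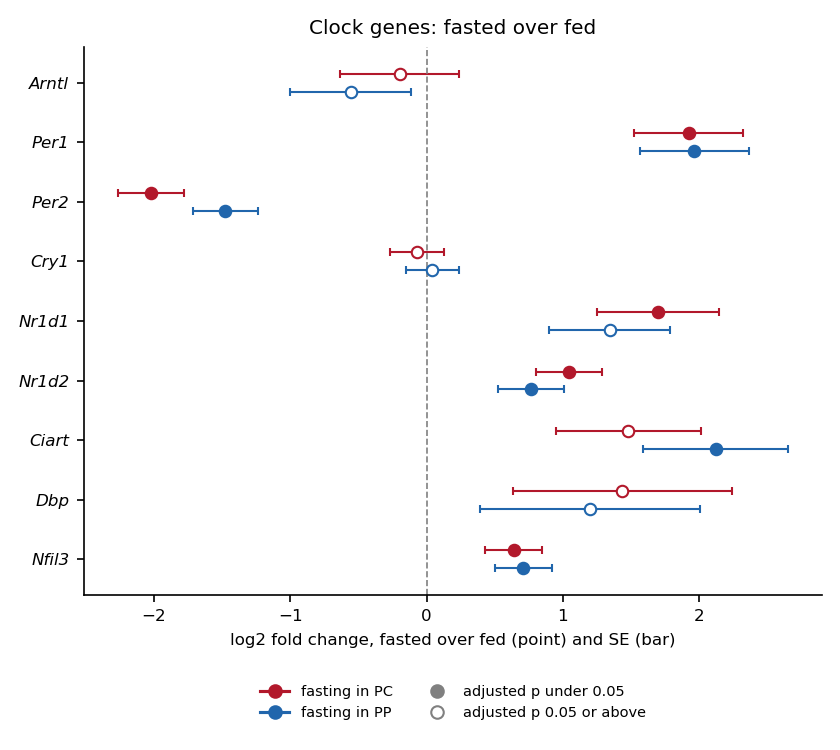
Log2 fold change, fasted over fed, of the 9 tested clock genes (points) with SE (bars), in PC and in PP; filled points passed an adjusted p of 0.05. Per1 stands near 2 in both zones and Per2 at -2.02 in PC and -1.48 in PP, while Cry1 lies at 0.

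Nr1d1, which encodes the repressor REV-ERB alpha, was at 27.2, 22.0 and 19.2 CPM in fasted PC libraries, against 12.5, 4.52 and 3.92 CPM in fed PC libraries. PP libraries had 19.7, 19.7 and 25.7 CPM when fasted, against 13.5, 7.04 and 4.99 CPM when fed. All fasted libraries lay above all fed libraries of their zone, and replicate 1 was the highest fed library in each zone. Nr1d1 rose in PC, by 1.70 ± 0.45 on the log2 scale (SE; adjusted p = 0.022 in edgeR), and had one of 1.34 ± 0.45 (adjusted p = 0.062 in edgeR) in PP, where it was not called. The PC call ended without fasted PC replicate 1 (1.53; adjusted p = 0.058 in edgeR), fasted PC replicate 2 (1.73; 0.052), fed PC replicate 2 (1.45; 0.085) or fed PC replicate 3 (1.42; 0.078). Without fed PC replicate 1 the PC value was 2.43 (adjusted p = 0.0021 in edgeR), and the PP value was called when fed PP replicate 1 was left out (1.86; 0.024) or fed PC replicate 1, which enters the shared spread (1.34; adjusted p = 0.013 in edgeR). Nr1d1 overlaps Thra, a thyroid hormone receptor gene on the other strand, and the library kit does not mark strand. Thra itself was not called, with a log2 fold change of 0.50 ± 0.21 (adjusted p = 0.11 in edgeR) in PC and 0.48 ± 0.21 (adjusted p = 0.13 in edgeR) in PP.

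Nr1d2, the gene of REV-ERB beta, rose with fasting in both zones. Its levels were 105.3, 109.5 and 101.1 CPM in fasted PC libraries, against 67.5, 50.3 and 35.2 CPM in fed PC libraries. In PP they were 87.5, 76.0 and 112.0 CPM in fasted libraries, against 71.4, 47.4 and 42.9 CPM in fed libraries. The groups did not overlap, though the gap in PP, between 76.0 and 71.4 CPM, was small. The log2 fold change was 1.04 ± 0.24 (SE; adjusted p = 0.010 in edgeR) in PC, or 2.06-fold, and 0.77 ± 0.24 (adjusted p = 0.047 in edgeR) in PP, or 1.70-fold. Leaving out any 1 library kept the PC call (0.84 to 1.30), with 1.02 without fasted PC replicate 1, while the PP call ended without any 1 of the fasted PP or fasted PC libraries, or without fed PC replicate 2, fed PP replicate 2 or fed PP replicate 3 (0.61 to 0.89; adjusted p in edgeR of 0.050 to 0.15).

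Ciart, a circadian repressor of BMAL1 and CLOCK also known as CHRONO and the gene with the 3 E-boxes shown above, was at 23.9, 15.6 and 7.59 CPM in fasted PC libraries, against 9.77, 3.62 and 3.38 CPM in fed PC libraries. PP levels were 40.0, 26.9 and 21.2 CPM in fasted libraries, against 8.27, 3.66 and 8.27 CPM in fed libraries. The PC groups overlapped, because fasted PC replicate 3 lay below fed PC replicate 1, and the PP groups did not. Ciart rose in PP by 2.12 ± 0.53 on the log2 scale (SE; adjusted p = 0.021 in edgeR), or 4.35-fold. In PC it had a log2 fold change of 1.48 ± 0.53 (adjusted p = 0.075 in edgeR) and was not called. The PP call ended without fasted PP replicate 1 (1.86; adjusted p = 0.064 in edgeR), fed PP replicate 2 (1.83; 0.070) or fed PP replicate 3 (2.29; 0.050), and the PC value was called without fed PC replicate 1 (2.17; adjusted p = 0.022 in edgeR) or fasted PC replicate 3 (1.80; 0.038) and was 1.02 without fasted PC replicate 1 (0.22).

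Dbp, an output factor that activates genes through D-boxes, had the widest spread of the 9 between libraries of a group. It was at 83.9, 52.3 and 25.1 CPM in fasted PC libraries, against 43.4, 10.8 and 5.05 CPM in fed PC libraries. PP libraries had 44.6, 42.0 and 43.4 CPM when fasted, against 36.1, 13.2 and 7.07 CPM when fed. The PC groups overlapped, and in PP every fasted library lay above every fed one. With a log2 fold change of 1.44 ± 0.81 (SE; adjusted p = 0.24 in edgeR) in PC and 1.20 ± 0.81 (adjusted p = 0.35 in edgeR) in PP, Dbp was called in neither zone. Without fed PC replicate 1 the PC value was 2.75 and called (adjusted p = 0.043 in edgeR), and without fasted PC replicate 1 it was 0.94 (adjusted p = 0.49 in edgeR). Dbp overlaps Sphk2, a sphingosine kinase gene on the other strand, which rose by 1.02 ± 0.21 (adjusted p = 0.0054 in edgeR) in PC and by 0.88 ± 0.21 (adjusted p = 0.014 in edgeR) in PP, so reads of the pair cannot be told apart where they overlap.

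Nfil3, which competes with DBP for D-boxes as a repressor, rose with fasting in both zones, by estimates of 1.56-fold in PC and 1.63-fold in PP. It was at 16.9, 32.1 and 24.2 CPM in fasted PC libraries, against 14.5, 15.3 and 17.1 CPM in fed PC libraries. In PP it was at 30.4, 20.2 and 27.8 CPM in fasted libraries, against 17.6, 15.6 and 14.8 CPM in fed libraries. The PC groups overlapped by 1 library, fasted PC replicate 1, and the PP groups did not overlap. Its log2 fold change was 0.64 ± 0.21 (SE; adjusted p = 0.045 in edgeR) in PC and 0.71 ± 0.21 (adjusted p = 0.034 in edgeR) in PP. The PC call held without fasted PC replicate 1 (0.83; adjusted p = 0.0081 in edgeR) and without fasted PP replicate 2, and ended without any other library (0.40 to 0.71; adjusted p in edgeR of 0.051 to 0.20). The PP call ended without fasted PP replicate 1 (0.60; adjusted p = 0.11 in edgeR), fasted PP replicate 3 (0.67; 0.078), fed PP replicate 2 (0.70; 0.088) or fed PP replicate 3 (0.66; 0.11).

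In PC, 4 of the 9 members had fasted and fed groups that did not overlap, a state that 41.7% of all genes shared. In PP, 7 of the 9 did, against 34.6% of all genes. The 2 members that overlapped in PP were Arntl and Cry1.

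Between the zones, none of the 9 tested members was called. In fasted mice, 0 of the 9 passed the test for PC over PP, where 6.40% of all genes were called, and 0 had an unadjusted p under 0.05 in edgeR, as 19.3% of all genes did. Their log2 fold changes ran from -0.90 for Ciart to 0.50 for Arntl. In fed mice, 0 of the 9 passed, where 4.72% of all genes were called, again with 0 at an unadjusted p under 0.05 (16.7% of all genes), and the values ran from -0.35 for Per1 to 0.23 for Per2. For no member did the PC and PP groups separate, in fasted or in fed mice, while 22.0% of all genes did so in fasted mice and 26.0% in fed mice. DESeq2 called 0 members for zone as well. Without fasted PC replicate 1, 0 were called in fasted mice, with values from -1.34 for Ciart to 0.83 for Arntl.

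**Figure D3:**
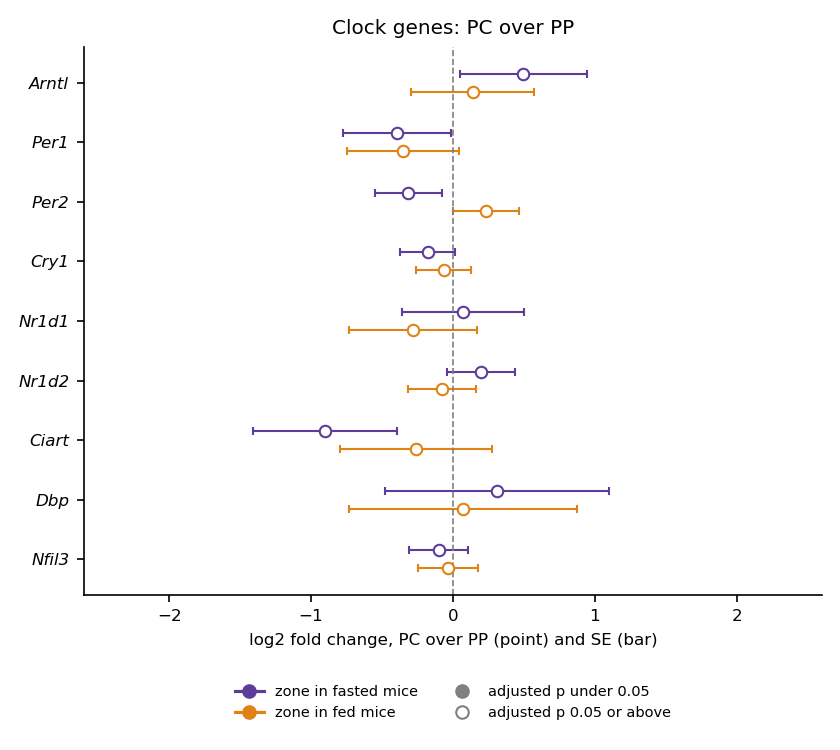
Log2 fold change, PC over PP, of the 9 tested clock genes (points) with SE (bars), in fasted and in fed mice. All points are open, that is, above an adjusted p of 0.05, and the one farthest from 0 is Ciart in fasted mice at -0.90.

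Ciart stood at 15.7 ± 8.15 CPM in fasted PC and 29.3 ± 9.64 CPM in fasted PP libraries (SD, n = 3 each), a log2 fold change of -0.90 ± 0.51 (SE; adjusted p = 0.39 in edgeR) whose 95% interval ran from -2.03 to 0.23. The groups overlapped through fasted PC replicate 1, the highest of its group. Without that library the value was -1.34 ± 0.55 (adjusted p = 0.19 in edgeR). Per1 averaged 52.0 ± 5.18 CPM in fasted PC and 68.4 ± 14.02 CPM in fasted PP libraries, a log2 fold change of -0.40 ± 0.38 (adjusted p = 0.65 in edgeR). For Cry1, whose spread was the smallest, the 95% interval of the zone difference ran from -0.60 to 0.25 in fasted mice and from -0.49 to 0.35 in fed mice. For Dbp it ran from -1.46 to 2.08 in fasted mice and from -1.73 to 1.88 in fed mice, wide enough to hold a 2-fold difference in either direction.

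Whether fasting acted differently in the zones was tested as the interaction, the fasting effect in PC minus that in PP. None of the 9 members was called, and 0 had an unadjusted p under 0.05. Over all 12086 genes, edgeR called 0 and 465 had an unadjusted p under 0.05 (3.85%), while DESeq2 called 11, of which 0 were members. Per2 had an interaction of -0.55 ± 0.33 (95% interval -1.27 to 0.18; adjusted p = 1 in edgeR) and Ciart one of -0.64 ± 0.74 (-2.28 to 1.00; adjusted p = 1 in edgeR). Nr1d1, called for fasting in PC only, had an interaction of 0.35 ± 0.62 (-1.02 to 1.73), and Ciart, called in PP only, the value above, so neither was shown to differ between the zones. Npas2 could not be tested.

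Within groups the clock genes did not spread alike. The coefficient of variation between libraries that edgeR estimated was 0.655 for Dbp, 0.435 for Ciart, 0.374 for Nr1d1, 0.369 for Arntl and 0.329 for Per1, against 0.21 for Nr1d2, 0.205 for Per2, 0.186 for Nfil3 and 0.175 for Cry1. The common value over all genes was 0.2055. In fed PC libraries the highest Dbp level was 8.60 times the lowest, in fed PP libraries 5.11 times, in fasted PC libraries 3.35 times and in fasted PP libraries 1.06 times.

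Some members ranked alike by library number in several groups. Dbp was highest in the library numbered 1 in all 4 groups, by 0.81 to 1.69 on the log2 scale over the group's mean in fasted PC, fed PC and fed PP, and by only 0.04 in fasted PP. Ciart was also highest there in all 4 groups, though in fed PP the libraries numbered 1 and 3 were level at 8.27 CPM. Of all genes tested, 3.63% were highest in library 1 in all 4 groups. Cry1 was lowest in that library in all 4 groups, as were 3.25% of all genes. Arntl was lowest and Nr1d1 highest in library 1 in 3 of 4 groups, all but fasted PP, while Nfil3 was highest in it in 2 groups and lowest in 2. The labels do not say what a library number marks.

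**Figure D4:**
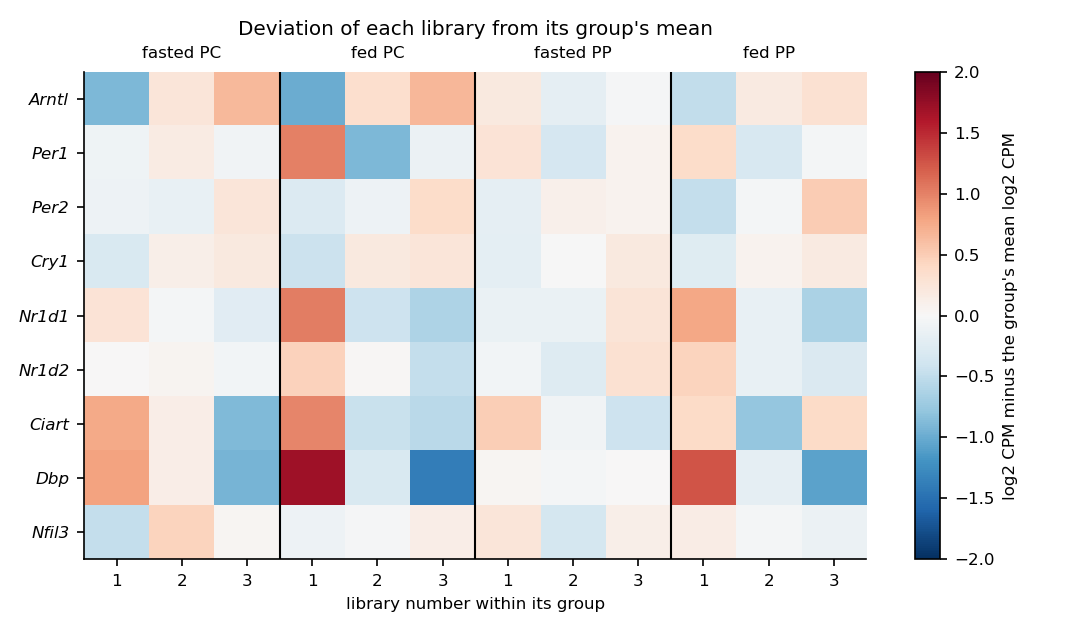
Deviation of each library's log2 CPM from the mean of its group (colour, on the log2 scale), for the 9 tested clock genes (rows) in the 12 libraries (columns, grouped by feeding and zone). Dbp is above its group's mean in the library numbered 1 of all 4 groups. Arntl and Dbp deviate in opposite directions in the libraries numbered 1 and 3 of fasted PC, fed PC and fed PP.

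The activator and the output gene can be set against each other in each library. The ratio of Dbp to Arntl estimated counts was 33.9, 9.45 and 3.40 in fasted PC libraries, against 16.7, 1.61 and 0.602 in fed PC libraries. In PP it was 10.7, 13.3 and 12.2 in fasted libraries, against 9.85, 2.23 and 1.10 in fed libraries. The ratio overlapped between fasted and fed PC libraries and did not in PP. The ratio depends on the lengths of the genes, so only changes between libraries can be read.

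Other genes of the clock were taken in 3 lists. Of 10 further clock transcription factors and repressors, all tested, 2 were higher and 2 lower with fasting in PC, and 3 were higher and 1 lower in PP, where 21.4% of all genes were called in PC and 17.9% in PP; their median log2 fold change was 0.01 in PC and -0.02 in PP. Rora, a nuclear receptor that activates through the AGGTCA element, rose by 0.57 ± 0.17 on the log2 scale in PC (SE; adjusted p = 0.028 in edgeR) and by 0.59 ± 0.17 in PP (adjusted p = 0.026 in edgeR). These calls held in 6 and 8 of 12 fits that left out 1 library. The PC call ended without any 1 of the fasted PC or fed PC libraries (0.49 to 0.61, adjusted p of 0.054 to 0.11 in edgeR). Without fasted PC replicate 1 the PC value was 0.57 (adjusted p = 0.054 in edgeR). The PP call ended without fasted PP replicate 1 or 3, or fed PP replicate 2 or 3 (0.44 to 0.63, adjusted p of 0.052 to 0.091 in edgeR). Rorb, a receptor of the same family, was below 0.9 CPM in every library and was not called.

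Bhlhe40, a repressor that binds E-boxes, was at 130.9, 166.5 and 58.3 CPM in fasted PC libraries, against 250.3, 325.8 and 261.4 CPM in fed PC libraries, and fell there by 1.24 on the log2 scale (adjusted p = 0.014 in edgeR). In PP its fasted libraries, at 139.7 to 193.2 CPM, lay below its fed libraries, at 246.0 to 309.4 CPM. Its log2 fold change there was -0.71 ± 0.30 (adjusted p = 0.13 in edgeR). The PP value was called without fasted PC replicate 3 (-0.70, adjusted p = 0.013 in edgeR) and with only the PP groups fitted (-0.70, 0.024). With only the PC groups fitted, the PC call ended (-1.26, adjusted p = 0.056 in edgeR). The interaction of Bhlhe40, -0.53 ± 0.42, was not called. Tef, a relative of Dbp, rose by 0.51 ± 0.13 in PC (adjusted p = 0.013 in edgeR) and 0.42 ± 0.13 in PP (adjusted p = 0.038 in edgeR), calls held in 10 and 5 of 12 fits that left out 1 library. Its PP call ended without any 1 PP library other than fed PP replicate 1 (0.36 to 0.45, adjusted p of 0.059 to 0.13 in edgeR). Cry2, the second cryptochrome, was called in PP at 0.48 ± 0.15 (adjusted p = 0.045 in edgeR), a call held in 2 of 12 such fits, and had 0.41 ± 0.15 in PC (adjusted p = 0.072 in edgeR). Without fasted PC replicate 1 the PC values were -1.33 for Bhlhe40, 0.46 for Tef and 0.27 for Cry2, with Bhlhe40 and Tef still called. Clock, Per3, Bhlhe41 and Hlf were called in no comparison.

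Of 15 genes whose products modify clock proteins, 5 were higher with fasting in PC and 4 in PP, and 0 were lower in either, while 11.1% of all genes were called higher in PC and 8.39% in PP. Usp2, a ubiquitin protease with a daily rhythm in the liver, rose in both zones: it was at 59.7, 69.1 and 66.0 CPM in fasted PC libraries, against 40.5, 31.2 and 21.9 CPM in fed PC libraries, with a log2 fold change of 1.05 ± 0.17 (SE; adjusted p = 0.0012 in edgeR), and in PP the log2 fold change was 0.85 ± 0.17 (adjusted p = 0.0048 in edgeR). The calls of Usp2 held in all 12 fits that left out 1 library. Sirt1, a deacetylase, rose by 0.58 ± 0.17 in PC (adjusted p = 0.026 in edgeR) and 0.72 ± 0.17 in PP (adjusted p = 0.011 in edgeR), calls held in 8 and 11 of such fits. Its PC call ended without any 1 of the fed PC libraries or without fasted PC replicate 3 (0.43 to 0.63, adjusted p of 0.054 to 0.11 in edgeR). The kinase genes Csnk1d (0.35 ± 0.09) and Gsk3a (0.54 ± 0.10) were called in PC only, and Csnk1e (0.71 ± 0.22) in PP only, in 11, 12 and 4 of such fits in that order, with no interaction called for any of these. Fbxl21, a gene of a ubiquitin ligase subunit, was the 1 modifier called between zones, higher in PC by 1.70 ± 0.37 in fasted mice (adjusted p = 0.017 in edgeR) and by 2.12 ± 0.36 in fed mice (adjusted p = 0.0041 in edgeR), calls held in 10 and 12 of such fits. Without fasted PC replicate 1 the PC values for fasting were 1.09 for Usp2, 0.65 for Sirt1, 0.36 for Csnk1d and 0.54 for Gsk3a, all called, and the zone value of Fbxl21 in fasted mice was 1.74. Prkaa1 was at 0 in 6 of 12 libraries, and its estimate, 0.90 ± 2.07 in PC, could not be read.

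**Figure D5:**
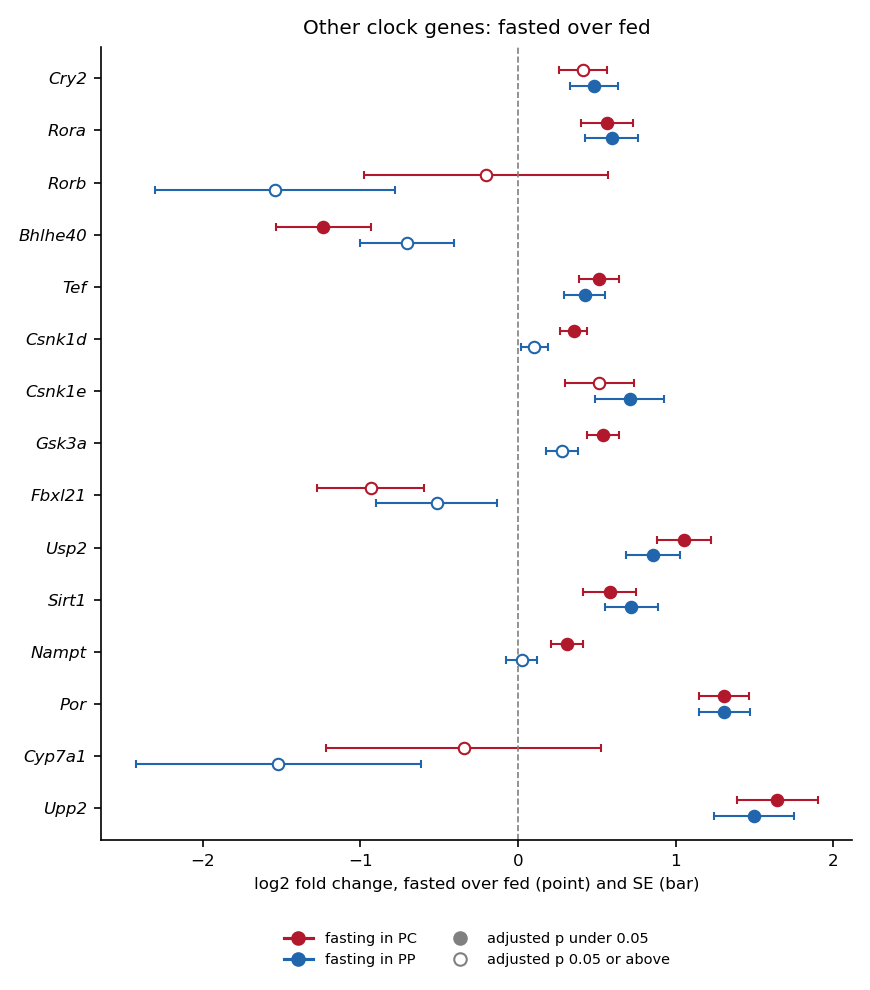
Log2 fold change, fasted over fed, of the named genes of the 3 other clock lists, Prkaa1 among those left out (points) with SE (bars), in PC and in PP; filled points passed an adjusted p of 0.05. Por and Upp2 lie highest in both zones, and Bhlhe40 is called below 0 in PC.

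Of 11 clock output genes of the liver, 3 were higher with fasting in PC and 2 in PP, and 0 were lower, beside 21.4% of all genes called in PC and 17.9% in PP. Upp2, a uridine phosphorylase, was at 447.9, 305.0 and 318.2 CPM in fasted PC libraries, against 119.6, 128.5 and 94.3 CPM in fed PC libraries, a log2 fold change of 1.64 ± 0.26 (SE; adjusted p = 0.0011 in edgeR), and rose by 1.50 ± 0.26 in PP (adjusted p = 0.0024 in edgeR). Por, which passes electrons to cytochromes P450, rose by 1.31 ± 0.16 in each zone (adjusted p = 0.00023 in edgeR in PC and 0.00032 in PP), and was higher in PC than in PP by 0.62 ± 0.16 in fasted mice (adjusted p = 0.037 in edgeR) and in fed mice (adjusted p = 0.043 in edgeR). The fasting calls of Por and Upp2 held in all 12 fits that left out 1 library, and the zone calls of Por in 3 of 12 in fasted mice and 5 of 12 in fed mice. Without fasted PC replicate 1 the fasting effect in PC was 1.43 for Upp2 and 1.43 for Por, and the zone value of Por in fasted mice was 0.76. Nampt, the enzyme that limits NAD synthesis by salvage, rose by 0.31 ± 0.10 in PC (adjusted p = 0.043 in edgeR), a call held in 0 of 12 such fits (0.28 without fasted PC replicate 1), and was lower in PC than in PP of fed mice, at -0.54 ± 0.10 (adjusted p = 0.0066 in edgeR). Cyp7a1, the rate-limiting enzyme of bile acid synthesis, was not called for fasting in PC (-0.34 ± 0.87) or PP (-1.52 ± 0.90).

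The genes whose levels followed those of 4 members most closely are given as a description, by Pearson's r of log2 CPM over the 12 libraries, which share depth and the fed and fasted groups. For Nr1d1 they were Tef (r = 0.976), Nr1d2 (0.963) and Eif2ak1 (0.958). For Per1 they included Errfi1 (0.972) and Mxd1 (0.962). For Dbp they were Glo1 (0.952), Gid4 (0.950) and Smad2 (0.942). For Arntl they were Sntb2 (0.894), which was at 0 in 5 of 12 libraries, Tysnd1 (0.852) and Keap1 (0.838).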

How the data were processed

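RNA of 12 libraries, 3 for each of fasted PC, fed PC, fasted PP and fed PP, was made into libraries with the NEBNext Ultra kit (not strand-specific), per the labels' protocols. The deposited values are estimated counts per gene, made by the authors with kallisto 0.46.0 on the build mm10, per the submitters' processing notes. The transcript annotation, the summing to genes and trimming are not given in the sources used here. Of 28030 identifiers, 27645 received a symbol from GENCODE M21 (GRCm38).

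Counts were rounded to whole numbers, filtered with filterByExpr (12086 genes) and scaled by TMM. All 12 libraries entered 1 model with a mean per group in edgeR 4.0.16 (R 4.3.3, robust quasi-likelihood fit, 8 residual degrees of freedom). The model was tested on simulated data in which libraries varied independently, so shifts shared by library number were not examined. An SE is the log2 fold change over the root of its F statistic. Log2 CPM for the correlations and deviations used a prior count of 2. Libraries of a group differed by more than sampling noise, with chi-square values of 25.8 to 86.5 per degree of freedom. That they are replicates rests on their labels, and p-values measure only the spread between these libraries.

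The members and the lists were chosen with earlier results of these data known. All 10 members are named, as are genes of the 3 other lists that were called in any comparison or were among the 3 of their list with the highest absolute log2 fold change for fasting, and the 3 genes most like Arntl, Nr1d1, Dbp and Per1, leaving out predicted models and pseudogenes. Some genes that meet this rule are counted in their lists and not reported here by name. Alternatives were another scaling, no filter, DESeq2 1.42.0, only the 2 groups compared, the replicate number as a block, and each library left out.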

Additional observations from a re-analysis of the deposited data

How the results depend on the processing

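Of 17 alternatives for each fasting effect, Per1 and Per2 were called in all 17 in both zones, with log2 fold changes of 1.56 to 2.61 (PC) and 1.82 to 2.18 (PP) for Per1 and of -2.17 to -1.82 and -1.67 to -1.18 for Per2. Nr1d2 was called in 17 in PC and 6 in PP, Nr1d1 in 12 and 5, Ciart in 4 and 13, Nfil3 in 5 and 12, and Dbp in 2 and 0. Leaving out 1 library at a time, 3 to 6 members were called for fasting in PC (2 to 5 higher) and 2 to 6 in PP (1 to 5 higher). Without the filter on low counts, with 20283 genes tested, 3 members were called in PP (2 higher). Genes called with 1 library left out numbered 1593 to 2618 and 1405 to 2414 for fasting in PC and PP, 386 to 1005 and 292 to 701 for zone in fasted and fed mice, and 0 to 2 for the interaction. DESeq2 called 929 genes for zone in fed mice and 11 for the interaction, and the fit without a filter called 1 for the interaction. The fits of only the fasted and only the fed groups, each with fewer libraries, called 376 and 736 for zone. The causes of these changes were not tested.

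Signs turned for these values with 1 library left out, none of them called. For fasting in PC, Arntl ran from -0.58 to 0.14, Cry1 from -0.25 to 0.05, Rorb from -1.29 to 0.40 and Prkaa1 from -8.99 to 9.83. For fasting in PP, Cry1 ran from -0.06 to 0.15, Fbxl21 from -0.73 to 0.09 and Nampt from -0.03 to 0.12. For zone in fed mice the ranges were -0.19 to 0.50 for Arntl, -1.04 to 0.01 for Per1, -0.18 to 0.12 for Cry1, -1.01 to 0.24 for Nr1d1, -0.33 to 0.20 for Nr1d2, -1.24 to 0.99 for Dbp and -0.10 to 0.06 for Nfil3. For zone in fasted mice they were -0.08 to 0.20 for Nr1d1, -0.17 to 0.65 for Dbp and -0.35 to 0.10 for Nfil3. For the interaction they were -0.02 to 0.69 for Arntl, -0.41 to 0.64 for Per1, -0.30 to 0.01 for Cry1, -0.18 to 1.08 for Nr1d1, -0.01 to 0.53 for Nr1d2, -1.10 to 0.04 for Ciart, -0.69 to 1.55 for Dbp and -0.31 to 0.12 for Nfil3.

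The replicate numbers were not taken to pair libraries. Over all genes tested, deviations of same-numbered libraries from their group means correlated at 0.00 to 0.10 between fasted and fed groups and at -0.12 to 0.27 between zones. Single members could differ from that. In fed mice Dbp deviated by 1.69, -0.31 and -1.39 in PC libraries and by 1.26, -0.19 and -1.08 in PP libraries. Nfil3 deviated by -0.11, -0.03 and 0.14 in PC and by 0.14, -0.03 and -0.11 in PP. The main zone intervals take no account of a shift shared by number. With the replicate number as a block, 2696 genes were called for fasting in PC and 2223 in PP, 796 and 625 for zone in fasted and fed mice, and 0 for the interaction. Under the block, Dbp (1.72; edgeR adjusted p = 0.046) and Ciart (1.53; 0.016) were called in PC and Nr1d1 (1.50; 0.017) in PP, Nfil3 was not called in PC (0.072) or PP (0.056), the zone value of Dbp in fed mice was -0.06 and the interaction of Per1 was 0.11.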
